A study of Homo sapiens with 96 samples.

Results

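Gefitinib was given at 100 nM for a day to HaCaT-EGFR, a human keratinocyte line that carries an added EGFR, and its transcripts were set against those of the same line under PBS. The members are the 3 arrays labelled HaCaT-EGFR, gefitinib (100 nM) and no siRNA, against the 2 arrays labelled HaCaT-EGFR, control (PBS) and no siRNA, so 5 of the 96 arrays of the series. HaCaT is a spontaneously immortalised human skin keratinocyte line. HaCaT-EGFR was made by lentiviral transfer of an EGFR coding sequence behind a CMV promoter and puromycin selection, and HaCaT-Mock is its counterpart without the added gene. Other arrays of HaCaT-EGFR had afatinib (10 nM), cetuximab (100 nM), siRNA against EGFR (siEGFR) or a scramble siRNA. The gefitinib arrays 1 and 2 and both PBS arrays came from array batch J, and gefitinib array 3 came from batch M, which holds no PBS array of this line. All values are log2 signals of Affymetrix U133 Plus 2.0 probe sets, 1 probe set a gene, and a difference of 1 is a doubling.

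Gefitinib is an anilinoquinazoline that competes reversibly with ATP in the kinase pocket of the epidermal growth factor receptor (EGFR). In keratinocytes this receptor is driven largely by ligands that the cells shed themselves, and it feeds the RAS, RAF, MEK and ERK kinases as well as PI3 kinase and AKT. ERK activity induces short-lived transcription factors such as EGR1 and FOSL1, together with phosphatases and adaptors that feed back on the pathway, while AKT holds the FOXO factors out of the nucleus. In epidermis EGFR signalling is known for keeping cells proliferating and for holding back terminal differentiation, and skin rash is a well-known effect of its inhibitors.

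The line carried the markers of keratinocytes. The 6 keratinocyte markers measured (KRT5, KRT14, PERP, DSP, CDH3 and SFN) had mean levels over the 5 arrays between 11.6 and 13.3, where the median gene was at 6.14. Of 21 fibroblast, melanocyte, endothelial and leukocyte markers, 1 fibroblast marker reached that median. The added EGFR was not visible in every EGFR probe set. Under PBS, the brightest EGFR probe set read 10.95 and 11.02 in HaCaT-EGFR against 10.96, 11.01 and 10.42 in HaCaT-Mock, whereas the next brightest read 10.44 and 10.5 in HaCaT-EGFR against 9.93, 10.22 and 9.04 in HaCaT-Mock. Whole-array correlations were 0.9974 between gefitinib arrays 1 and 2, 0.9922 to 0.9927 between these and array 3, 0.9974 between the PBS arrays, and 0.9807 to 0.9869 between gefitinib and PBS arrays. The ACTB 3′ to 5′ signal, a sign of RNA integrity and of labelling, differed by 1.23, 1.38 and 0.36 log2 units on gefitinib arrays 1 to 3, against 1.35 and 1.46 under PBS. Array 3 was thus the lowest on it, and the batch M arrays of all HaCaT construct lines were in the range of 0.243 to 0.526.

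Promoters of some members named in the results are printed here, each with its matches to a motif. Each is 300 bases (250 before and 50 after the start), 5′ to 3′ on the gene's strand, from RefSeq on GRCh38.p14, with motif matches in capitals. Of the genes measured, 15384 had such a promoter, and shares are given of 27305 promoters in all. Motifs were searched on both strands, and a match is a description of letters, not a bound site. Within a list only called members were counted. A share therefore does not tell members that moved from members that did not. EGR1 (chr5:138465229-138465528, plus strand) is shown for its CArG boxes, the serum response element found in 1.29% of all promoters. EGFR (chr7:55018767-55019066, plus strand) is shown for the AP-2 motif GCCNNNGGC, found in 23% of all. IFIT3 (chr10:89327747-89328046, plus strand) and CXCL9 (chr4:76007460-76007759, minus strand) each hold the interferon-stimulated response element, searched as GAAANNGAAA (3.65% of all), and moved in opposite directions. CDC6 (chr17:40287629-40287928, plus strand) has the E2F motif, searched as TTTGGCGC or TTTCCCGC (2.31%), and MKI67 (chr10:128126374-128126673, minus strand) has the CHR motif TTTGAA (15.4%) of genes expressed in G2 and mitosis.
EGR1: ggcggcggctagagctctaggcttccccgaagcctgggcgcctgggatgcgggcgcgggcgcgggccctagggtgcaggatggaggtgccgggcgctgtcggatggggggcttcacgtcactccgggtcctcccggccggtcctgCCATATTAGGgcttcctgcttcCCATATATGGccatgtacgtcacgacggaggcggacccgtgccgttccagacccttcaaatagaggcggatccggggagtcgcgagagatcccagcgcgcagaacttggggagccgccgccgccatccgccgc
EGFR: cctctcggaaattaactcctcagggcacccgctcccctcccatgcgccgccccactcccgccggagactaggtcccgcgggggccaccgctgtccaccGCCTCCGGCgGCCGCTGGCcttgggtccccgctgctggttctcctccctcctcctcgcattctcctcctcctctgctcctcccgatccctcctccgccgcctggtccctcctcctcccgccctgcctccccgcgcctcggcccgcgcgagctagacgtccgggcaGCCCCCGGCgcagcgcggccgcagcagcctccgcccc
IFIT3: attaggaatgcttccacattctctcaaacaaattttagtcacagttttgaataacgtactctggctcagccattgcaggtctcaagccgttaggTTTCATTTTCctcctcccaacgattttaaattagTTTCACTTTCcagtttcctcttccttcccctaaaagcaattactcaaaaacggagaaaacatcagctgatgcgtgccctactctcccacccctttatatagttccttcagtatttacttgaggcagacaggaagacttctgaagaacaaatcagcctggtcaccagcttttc
CXCL9: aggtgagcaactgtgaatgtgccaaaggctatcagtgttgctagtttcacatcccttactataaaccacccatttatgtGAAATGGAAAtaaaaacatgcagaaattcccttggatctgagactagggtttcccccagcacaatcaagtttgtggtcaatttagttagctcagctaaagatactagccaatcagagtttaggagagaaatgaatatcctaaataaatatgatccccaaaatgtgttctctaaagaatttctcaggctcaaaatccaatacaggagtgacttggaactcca
CDC6: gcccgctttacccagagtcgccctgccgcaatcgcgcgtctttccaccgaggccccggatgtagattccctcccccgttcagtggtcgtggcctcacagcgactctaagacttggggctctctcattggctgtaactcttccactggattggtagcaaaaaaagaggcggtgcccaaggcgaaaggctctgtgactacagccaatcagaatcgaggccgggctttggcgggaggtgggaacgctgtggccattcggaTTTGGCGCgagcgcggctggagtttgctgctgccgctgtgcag
MKI67: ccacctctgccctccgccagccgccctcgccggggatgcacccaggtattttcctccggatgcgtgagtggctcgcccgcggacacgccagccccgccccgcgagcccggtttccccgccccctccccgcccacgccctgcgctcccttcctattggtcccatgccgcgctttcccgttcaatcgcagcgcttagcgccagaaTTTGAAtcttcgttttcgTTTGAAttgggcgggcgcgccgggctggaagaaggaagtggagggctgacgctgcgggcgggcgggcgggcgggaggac

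Under gefitinib, genes that ERK induces were among the largest falls in HaCaT-EGFR. The 12 largest rises held the mucosal keratin KRT4 and the envelope precursor IVL beside genes of other kinds. Leaving aside genes of below-median level, the largest falls were in EGR1, DUSP6, ETV5, FOSL1 and NRG1, and the largest rises were in KRT4, CLIC3, MMP13, CYP4F3 and CCL2. A limma model over 89 HaCaT construct arrays, with terms for group and array batch and Benjamini-Hochberg adjustment over 19775 genes, called 4888 genes at an adjusted p under 0.05, or 24.7% of those tested. Of these 2596 were higher (13.1%) and 2292 lower (11.6%), and 312 and 98 of them by at least 1 log2 unit. The median change over all genes was -0.0186 and the median standard error (SE) 0.125. Without the batch term 2858 genes were called. Whether the arrays stand for separate cultures is not stated in the labels, and the p-values then reflect only how far these arrays vary, which may be technical. Fitted changes are corrected for batch and need not equal the plain difference of the group means.

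The 12 largest rises, among called genes at or above the median level whose 3 gefitinib arrays all lay above both PBS arrays, spanned several kinds of gene. KRT4, a keratin of wet stratified epithelia, read 9.6, 9.45 and 9.91 under gefitinib against 5.74 and 6.04 under PBS (3.67 ± 0.34, adjusted p = 2.4e-12). CLIC3, an intracellular chloride channel protein, read 7.92, 7.83 and 8.05 under gefitinib and 4.17 and 4.42 under PBS (3.56 ± 0.34, adjusted p = 4.9e-12). Both genes, like several others of the 12, sat below the median level under PBS and above it on all 3 gefitinib arrays. Over all genes tested, 21.6% had all 3 gefitinib arrays above both PBS arrays and 25.9% had them below both. MMP13, a collagenase, read 7.92, 8.12 and 7.85 against 4.64 and 4.93 under PBS (3.24 ± 0.24, adjusted p = 8.1e-16). CYP4F3, which oxidises leukotriene B4, read 8.43, 8.5 and 8.52 against 5.26 and 5.84 under PBS (2.93 ± 0.32, adjusted p = 2.7e-10). The monocyte-attracting chemokine CCL2 had the largest SE of the 12, with 8.7, 8.42 and 8.22 under gefitinib against 5.83 and 5.5 under PBS (2.86 ± 0.49, adjusted p = 7.3e-06). VGLL1, a cofactor of TEAD transcription factors, rose by 2.84 ± 0.43, PSG5, a pregnancy-specific glycoprotein, by 2.78 ± 0.29, and ALPP, placental alkaline phosphatase, by 2.58 ± 0.24. PSG5 and ALPP have near-identical relatives, so their probe sets may also read those. The rest of the 12 were TNFSF10, IVL, SERPINB10 and SYNPO, with rises of 2.67 for TNFSF10, 2.58 for IVL, 2.53 for SERPINB10 and 2.52 for SYNPO.

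**Figure D1:**
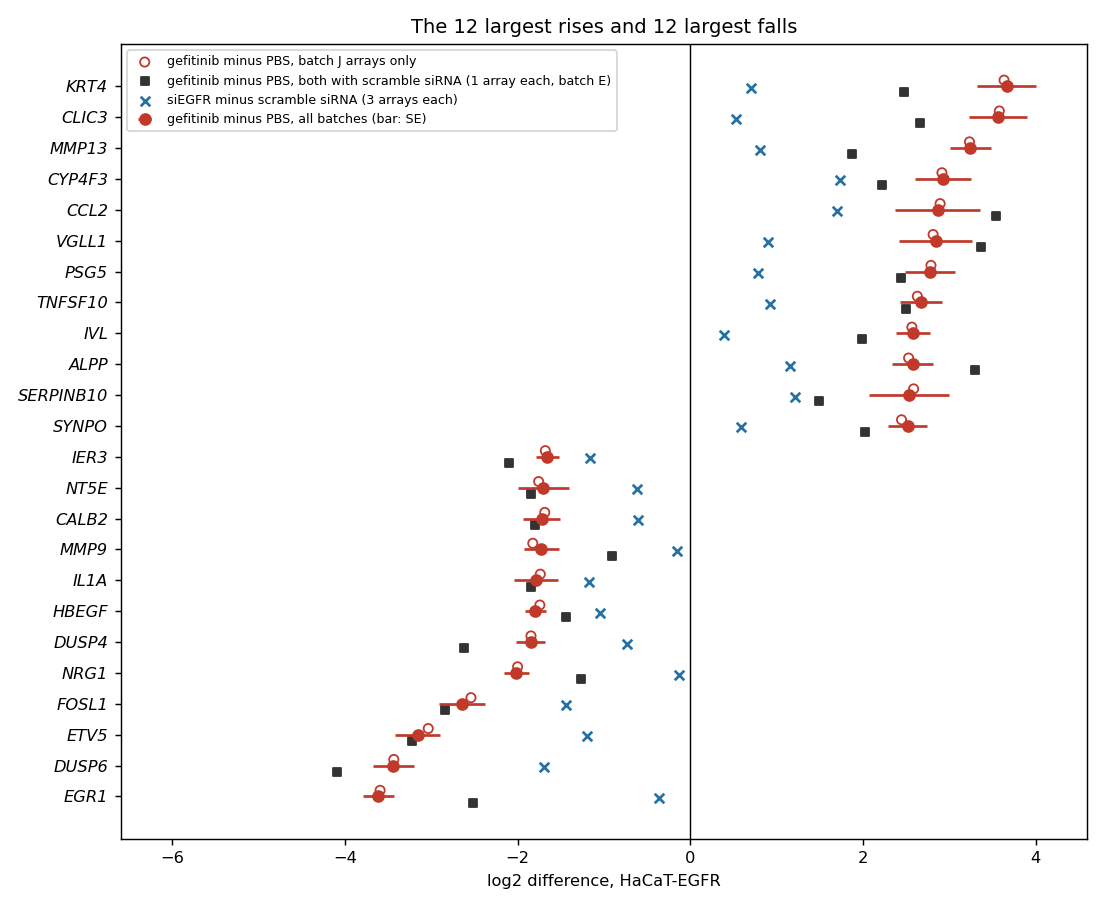
Log2 difference in HaCaT-EGFR (horizontal axis) for the 12 largest rises and 12 largest falls (rows). Filled red points are gefitinib minus PBS over all batches with the SE as a bar, open circles the same from batch J arrays only, black squares gefitinib minus PBS with scramble siRNA in both (1 array each, batch E, no test), and blue crosses siEGFR minus scramble siRNA (3 arrays each). The open circles lie on the filled points, the squares share their side of 0 for all 24 genes, and the crosses lie nearer to 0.

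EGR1, ETV5 and FOSL1, transcription factors that ERK induces, were among the 12 largest falls. EGR1, an immediate-early zinc finger factor whose printed promoter holds CArG boxes starting at -105 and -83, read 6.58, 6.66 and 6.17 on the gefitinib arrays against 10.26 and 10.17 on the PBS arrays, a change of -3.62 ± 0.18 (adjusted p = 4.3e-22). ETV5, an ETS factor induced by ERK, read 5.14, 5.01 and 4.65 against 8.19 and 8.04 under PBS (-3.16 ± 0.26, adjusted p = 4.0e-14). FOSL1, the AP-1 subunit FRA1, read 5.44, 5.38 and 5.49 against 8.07 and 7.84 under PBS (-2.65 ± 0.27, adjusted p = 3.2e-11). In all 3 genes every gefitinib array lay more than 2 log2 units below both PBS arrays. IER3, FOS, ETV4 and EGR3 fell too, with changes of -1.66 for IER3, -1.31 for FOS, -1.19 for ETV4 and -1.05 for EGR3. Of 17 measured members of this list, 7 fell and 3 rose, with a median of -0.341. The 3 that rose were the AP-1 subunits FOSL2 (0.76 ± 0.11), JUND (0.70 ± 0.16) and JUNB (0.28 ± 0.096). MYC (-0.26 ± 0.18, adjusted p = 0.36) and JUN (-0.41 ± 0.17, adjusted p = 0.066) did not pass.

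Several genes of negative feedback on the pathway fell as well. DUSP6, the cytoplasmic ERK phosphatase, read 6.58, 6.4 and 6.18 under gefitinib against 9.99 and 9.87 under PBS (-3.44 ± 0.24, adjusted p = 1.2e-16). Of 11 MAP kinase phosphatases measured, DUSP4, DUSP5, DUSP7 and DUSP2 also fell, with changes of -1.85 for DUSP4, -1.09 for DUSP5, -0.74 for DUSP7 and -0.52 for DUSP2, while DUSP10 (0.61 ± 0.096) and DUSP1 (0.39 ± 0.14) rose. DUSP10 acts chiefly on the stress kinases p38 and JNK. The median change of the 11 phosphatases was 0.0438. Of 9 inhibitors of the receptor or of RAS, 6 fell and none rose, with a median of -0.833. They were SPRY1 (-1.4 ± 0.22), ERRFI1 (-1.29 ± 0.24), SPRED2 (-1.16 ± 0.17), SPRY2 (-1.04 ± 0.15), SPRY4 (-0.83 ± 0.16) and SPRED1 (-0.72 ± 0.18). ERRFI1, also called MIG6, binds the EGFR kinase domain directly. Its levels were 8.63, 8.54 and 8.38 under gefitinib against 9.86 and 9.81 under PBS. NF1, LRIG1 and SPRED3 did not pass.

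**Figure D2:**
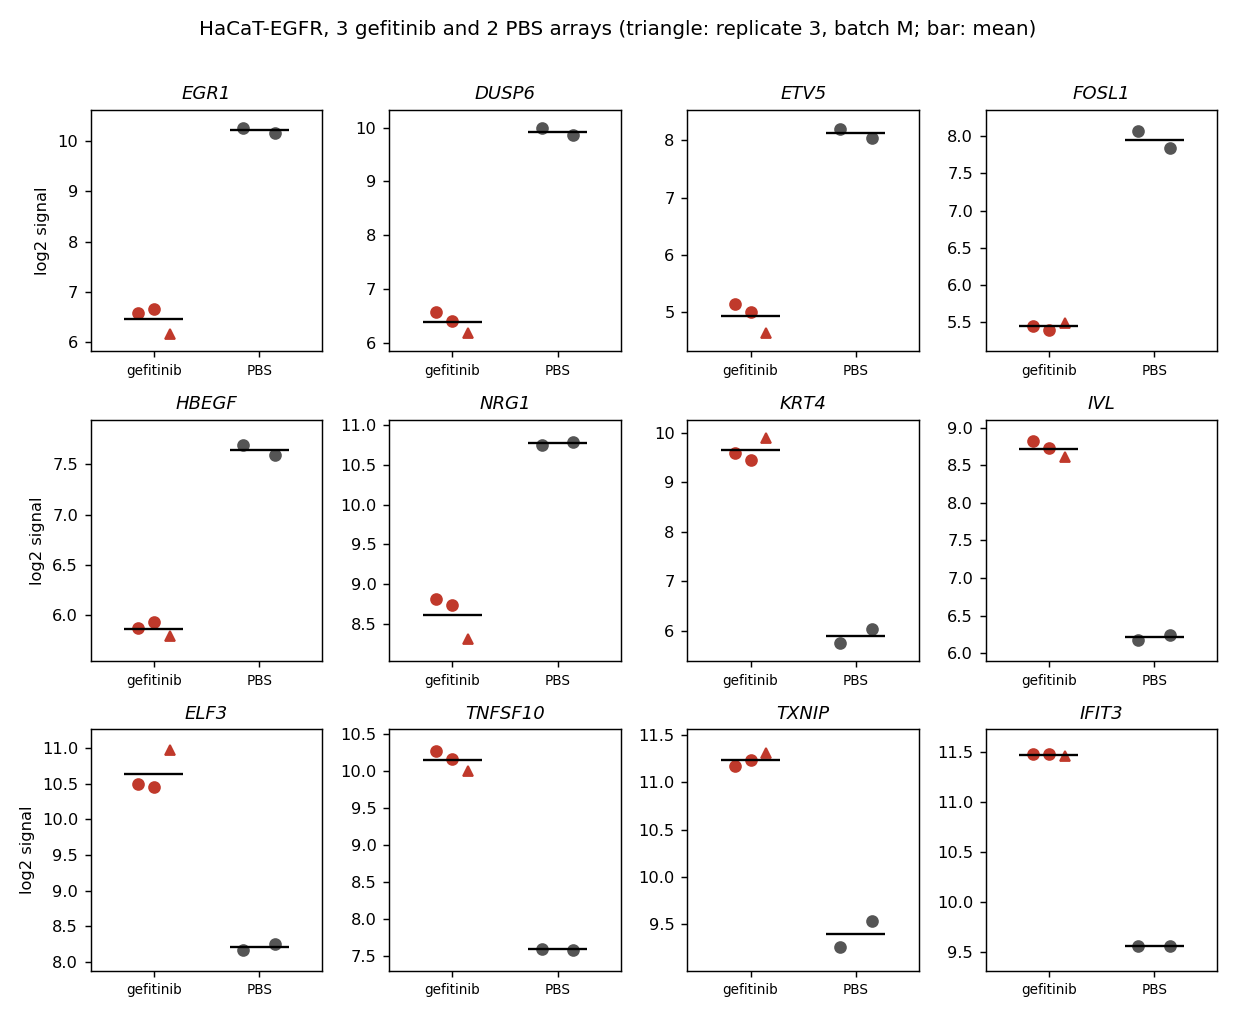
Log2 signal (vertical axis, a scale per panel) of 12 genes on the gefitinib arrays (red) and the PBS arrays (grey) of HaCaT-EGFR; each point is an array, the triangle is the gefitinib array of batch M and the bar is the mean. In every panel the 3 gefitinib arrays lie on the same side of both PBS arrays. Over all genes tested 21.6% had them above both and 25.9% below both.

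The receptors rose while most of their ligands fell. EGFR itself read 11.62, 11.79 and 11.18 on the gefitinib arrays against 10.95 and 11.02 on the PBS arrays (0.75 ± 0.11, adjusted p = 1.7e-07), and the within-batch J difference was 0.72 ± 0.12 (adjusted p = 7.3e-05). Without the batch term the EGFR change was 0.55 with an adjusted p of 0.33. Of its 9 probe sets 4 were called, all higher, and the next brightest read 10.66, 10.99 and 11.65 under gefitinib against 10.44 and 10.5 under PBS (0.52, adjusted p = 0.051 over all probe sets). ERBB3 (0.62 ± 0.086) and ERBB2 (0.48 ± 0.11), the partners with which EGFR pairs, rose too, and ERBB4 (-0.12 ± 0.16, adjusted p = 0.69) stayed at the low level of 4.22 under gefitinib and 4.36 under PBS. NRG1, a ligand of ERBB3 and ERBB4, read 8.81, 8.73 and 8.31 against 10.75 and 10.79 under PBS (-2.02 ± 0.14, adjusted p = 1.6e-16). With the probe set that the study's rule picks, NRG1 changed by -0.85 (adjusted p = 8e-09). HBEGF, heparin-binding EGF, read 5.87, 5.93 and 5.79 against 7.7 and 7.59 under PBS (-1.8 ± 0.12, adjusted p = 3.2e-17). Both genes are among the 12 largest falls, which were chosen to have no overlap between groups. EREG (-1.39 ± 0.27) and TGFA (-0.41 ± 0.14) fell as well, betacellulin (BTC, 0.72 ± 0.17) rose and EGF (0.15 ± 0.11, adjusted p = 0.38) did not pass. AREG and EPGN were not analysed here.

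The study named 9 targets of the transcription factor AP-2α by direction, and the list was chosen on these samples, so its counts are not independent evidence. All 5 targets named as rising were higher (median 0.628), with 0.63 for IGF1R, 0.75 for EGFR, 0.74 for BMP2, 0.48 for ERBB2 and 0.41 for BMP4. All 4 named as falling were lower (median -0.612), with -0.86 for VEGFA, -0.57 for FGFR4, -0.65 for TGFBR3 and -0.41 for TGFA. TFAP2A, the gene of AP-2α, read 10.32, 10.27 and 10.14 under gefitinib against 9.74 and 9.8 under PBS (0.52 ± 0.064, adjusted p = 5.5e-09), and the other 4 AP-2 genes did not pass. The AP-2 motif was present in 3 of the 4 rising targets with a promoter, in 30.6% of all called genes that rose and in 29.3% of those that fell. In the promoter of the cells' own EGFR it starts at -152, -142 and 13, whereas the added EGFR lies behind a CMV promoter. In the paper's RT-PCR of HaCaT-EGFR under afatinib, EGFR was the exception among targets that matched the arrays. The paper describes it as a transcript kept up artificially by an exogenous promoter. Among other receptor tyrosine kinases, FGFR3 (0.83 ± 0.14), FGFR2 (0.67 ± 0.12) and IGF1R (0.63 ± 0.089) rose, and FGFR4 (-0.57 ± 0.14), EPHA2 (-0.40 ± 0.12) and AXL (-0.38 ± 0.11) fell. MET (0.22 ± 0.12, adjusted p = 0.20) did not pass.

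Most FOXO targets rose. Of 15 measured, 9 were higher and 1 lower, and the median was 0.567. FBXO32, the ubiquitin ligase atrogin-1, read 8.5, 8.56 and 8.47 under gefitinib against 6.51 and 6.55 under PBS (2.0 ± 0.19, adjusted p = 2.0e-12). TXNIP, which binds thioredoxin and curbs glucose uptake, read 11.18, 11.24 and 11.31 against 9.25 and 9.53 under PBS (1.83 ± 0.21, adjusted p = 1.1e-09). PIK3IP1, an inhibitor of PI3 kinase, read 8.25, 8.16 and 8.35 against 6.58 and 6.87 under PBS (1.46 ± 0.18, adjusted p = 6.6e-09). In all 3 every gefitinib array lay above both PBS arrays, as in 21.6% of all genes tested. Smaller rises were seen in SESN3, BCL2L11, BCL6, CITED2, CDKN1B and CCNG2 (0.82 for SESN3, 0.68 for BCL2L11, 0.64 for BCL6, 0.57 for CITED2, 0.52 for CDKN1B and 0.45 for CCNG2). TRIB2, a pseudokinase, went the other way (-1.51 ± 0.20). The FOXO motif TGTTTAC was in 2 of the 8 rising members with a promoter and in 3.41% of all promoters.

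Keratins of several layers rose. Of 8 suprabasal and mucosal keratins, 4 were higher and none lower (median 0.406). Besides KRT4, the mucosal keratin KRT13 read 10.64, 10.57 and 11.02 under gefitinib against 8.0 and 8.35 under PBS (2.48 ± 0.35, adjusted p = 1.4e-07), and KRT1, the early suprabasal keratin of skin, read 6.84, 7.0 and 6.96 against 5.21 and 5.14 under PBS (1.75 ± 0.28, adjusted p = 2.3e-06). KRT10, the usual partner of KRT1, did not pass (0.16 ± 0.067, adjusted p = 0.067). Of 10 basal keratinocyte genes, 4 were higher and 1 lower (median 0.147), and the basal keratins were among those that rose. KRT15 read 12.74, 12.75 and 12.81 under gefitinib against 10.37 and 10.57 under PBS (2.25 ± 0.20, adjusted p = 5.4e-13), KRT5 changed by 1.48 ± 0.18 and KRT14 by 0.87 ± 0.17. KRT16, a keratin of wounded and hyperproliferative epidermis, read 7.62, 7.5 and 7.93 against 6.46 and 6.32 under PBS (1.2 ± 0.17, adjusted p = 7.6e-08). BCAM, a laminin receptor, rose (0.67 ± 0.16), and DST, a plakin of hemidesmosomes, fell (-0.53 ± 0.15). The basal integrins ITGA6, ITGB1, ITGB4 and ITGA3 did not pass, with changes of -0.13 for ITGA6, -0.16 for ITGB1, 0.25 for ITGB4 and -0.08 for ITGA3. In bulk RNA, more cells of a kind and more RNA per cell cannot be told apart.

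The cornified envelope, the protein shell of the outermost cells, was represented by a few strong rises. IVL, the envelope precursor involucrin, read 8.82, 8.74 and 8.61 under gefitinib against 6.18 and 6.25 under PBS (2.58 ± 0.20, adjusted p = 7.5e-15). TGM1, the transglutaminase that crosslinks the shell, read 7.78, 7.69 and 8.05 against 5.61 and 5.76 under PBS (2.09 ± 0.25, adjusted p = 2.5e-09), and SCEL, sciellin, read 9.04, 8.98 and 8.61 against 6.74 and 6.84 under PBS (2.19 ± 0.32, adjusted p = 2.6e-07). CNFN (0.72 ± 0.13) and PPL (0.65 ± 0.10) rose by less, and SPRR3 fell (-0.60 ± 0.13). The other 13 of the 19 genes measured did not pass, among them the late genes FLG (-0.40 ± 0.16), KRTDAP (-0.35 ± 0.17) and CDSN (-0.27 ± 0.13), and the list's median was -0.0657. Among 16 differentiation transcription factors 5 rose and none fell. ELF3, an epithelial ETS factor, read 10.49, 10.46 and 10.97 under gefitinib against 8.17 and 8.25 under PBS (2.3 ± 0.22, adjusted p = 2.9e-12), and GRHL3, MAF, GATA3 and GRHL2 changed by 0.79 for GRHL3, 0.63 for MAF, 0.46 for GATA3 and 0.29 for GRHL2.

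Cell junction genes rose broadly. Of 17 desmosome and junction genes 13 rose and 1 fell, with a median of 0.68. PKP1, a desmosomal plaque protein, read 10.45, 10.45 and 10.79 under gefitinib against 9.11 and 9.18 under PBS (1.3 ± 0.16, adjusted p = 2.2e-09). DSG3, the cadherin of lower epidermal desmosomes, changed by 1.17 ± 0.22, the tight junction claudin CLDN1 by 1.04 ± 0.19, DSC3 by 0.96 ± 0.21, DSC2 by 0.86 ± 0.10 and JUP by 0.83 ± 0.13. The claudin CLDN4 fell (-0.35 ± 0.10), and E-cadherin (CDH1, 0.53 ± 0.26, adjusted p = 0.15) did not pass. Kallikreins, serine proteases that cleave desmosomal proteins in shedding skin, rose for 5 of 9, led by KLK10 (1.37 ± 0.15), KLK7 (1.03 ± 0.17) and KLK5 (0.84 ± 0.099). NOTCH1 (1.05 ± 0.12) and its ligands JAG2 (0.79 ± 0.10) and JAG1 (0.45 ± 0.097) rose while the target HEY1 fell (-1.34 ± 0.24) and HES1 did not pass (0.31 ± 0.15, adjusted p = 0.14). LCN2, an iron-scavenging antimicrobial protein, read 8.02, 8.0 and 8.52 under gefitinib against 5.95 and 6.12 under PBS (1.98 ± 0.25, adjusted p = 1.3e-08). S100A8, S100A9 and S100A7 did not pass, with changes of -0.11 for S100A8, 0.03 for S100A9 and -0.03 for S100A7.

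Every called member of a list of interferon-stimulated genes rose. The list does not hold CXCL9, CXCL10, CXCL11 and IDO1, which interferon gamma induces and which fell. Their changes were -1.86 for CXCL9, -1.7 for CXCL10, -1.4 for CXCL11 and -0.95 for IDO1. Of 28 list members measured, 15 were higher and 0 lower, with a median of 0.369. TRIM22, an antiviral TRIM protein, read 9.37, 9.34 and 9.25 under gefitinib against 7.05 and 7.34 under PBS (2.16 ± 0.31, adjusted p = 2.5e-07). IFIT3, which binds viral RNA together with other IFIT proteins, read 11.48, 11.48 and 11.46 against 9.56 and 9.56 under PBS (1.9 ± 0.26, adjusted p = 4.3e-08). IRF9, the DNA-binding part of the interferon-activated complex ISGF3, read 8.59, 8.49 and 8.85 against 7.0 and 7.3 under PBS (1.4 ± 0.20, adjusted p = 1.5e-07). In all 3 the arrays within a group lay close together and the groups far apart. IFIT2, PARP9, IFIT1, OAS1 and IRF7 changed by 1.79 for IFIT2, 1.21 for PARP9, 1.09 for IFIT1, 1.09 for OAS1 and 0.65 for IRF7. ISG15 (0.29 ± 0.16, adjusted p = 0.20), IFI44L (-0.0026 ± 0.13) and MX2 (-0.00099 ± 0.19) did not pass. The interferon-stimulated response element was in 6 of the 11 rising members with a promoter, among them IFIT3 at -156 and -122. It was in 3.65% of all promoters, in 4.27% of all genes that rose and in 2 of the 4 falling chemokines with a promoter.

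Genes of MHC class I presentation rose for 11 of 13 measured, with no fall (median 0.627). PSMB10, a subunit of the immunoproteasome, read 10.25, 10.25 and 10.33 under gefitinib against 8.95 and 8.83 under PBS (1.39 ± 0.15, adjusted p = 4.3e-10). PSMB9, another of its subunits, read 10.29, 10.25 and 10.39 against 9.05 and 8.98 under PBS (1.28 ± 0.17, adjusted p = 2.3e-08). TAPBP, the peptide-loading chaperone tapasin, changed by 0.94 ± 0.15, NLRC5, the class I transactivator, by 0.78 ± 0.16, the trimming peptidase ERAP1 by 0.71 ± 0.13 and TAP1 by 0.55 ± 0.10. The heavy chain probe sets of HLA-B, HLA-C, HLA-E and HLA-F rose by 0.63 for HLA-B, 0.59 for HLA-C, 0.60 for HLA-E and 0.47 for HLA-F and may share sequence, so which gene each reads is uncertain. B2M, the light chain, had a change of 0.27 ± 0.11, adjusted p = 0.062.

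Chemokines, among them some that interferon induces, did not follow the list of interferon-stimulated genes. Of 17 measured, CXCL9, CXCL10, CXCL11 and CXCL6 fell, CCL2 and CXCL16 rose, and the median was -0.0249. CXCL9, a T-cell attractant induced by interferon gamma, read 4.68, 4.53 and 4.62 under gefitinib against 6.58 and 6.32 under PBS (-1.86 ± 0.17, adjusted p = 1.8e-12). CXCL10, a second ligand of CXCR3, read 4.88, 4.42 and 4.4 against 6.37 and 6.2 under PBS (-1.7 ± 0.22, adjusted p = 1.4e-08), and CXCL11, a further ligand of it, read 3.09, 3.11 and 3.33 against 4.78 and 4.4 under PBS (-1.4 ± 0.18, adjusted p = 1.9e-08). In all 3 every gefitinib array lay below both PBS arrays, as in 25.9% of all genes tested. Under gefitinib all 3 genes lay below the median level of 6.14, and under PBS CXCL9 and CXCL10 lay just above it. CXCL8 (0.32 ± 0.39, adjusted p = 0.65) and CXCL1 (-0.14 ± 0.19, adjusted p = 0.69), attractants of neutrophils, did not pass. In the interleukin 1 family 5 of 13 fell and 1 rose (median -0.157). IL1A read 7.64, 7.68 and 7.2 under gefitinib against 9.42 and 9.38 under PBS (-1.79 ± 0.25, adjusted p = 1.4e-07), IL1B changed by -1.24 ± 0.13 and IL1R2, the decoy receptor, by -2.54 ± 0.24. IL1RN, the receptor antagonist, rose by 0.60 ± 0.16.

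Whether gefitinib acted differently in HaCaT-EGFR than in HaCaT-Mock, which lacks the added EGFR, was tested as the difference of the gefitinib responses. These share no array. In HaCaT-Mock the gefitinib arrays 1 to 3 came from batches J, E and M, and the PBS arrays 1 and 2 from batch J and array 3 from batch E. Of 19775 genes 9 were called, 3 with a higher (0.0152%) and 6 with a lower response (0.0303%) in HaCaT-EGFR, together 0.0455%. An unadjusted p under 0.05 was found for 1354, a share a little above the 0.05 that would be met with no difference anywhere. The chemokines stood out most. CXCL9 in HaCaT-Mock read 4.99, 4.97 and 4.93 under gefitinib against 4.16, 4.67 and 4.61 under PBS, a response of 0.47 where HaCaT-EGFR had -1.86, so the responses differed by -2.33 ± 0.23, adjusted p = 9.9e-10. CXCL10 in HaCaT-Mock read 5.04, 4.63 and 5.11 against 4.65, 4.4 and 4.36 under PBS, and the responses differed by -2.17 ± 0.29, adjusted p = 5.4e-06. CXCL11 read 3.96, 3.46 and 3.76 against 3.28, 3.19 and 3.11 under PBS, with a difference of -1.94 ± 0.24, adjusted p = 1.1e-06. For these genes the PBS arrays of HaCaT-EGFR stood above all other gefitinib and PBS arrays of both lines, and the gefitinib arrays of HaCaT-EGFR lay within or near the range of HaCaT-Mock under PBS. IDO1, a tryptophan-degrading enzyme induced by interferon gamma, had 5.43, 5.11 and 5.25 under gefitinib and 6.24 and 6.2 under PBS in HaCaT-EGFR, and in HaCaT-Mock 5.8, 5.67 and 5.5 under gefitinib and 5.41, 5.49 and 5.87 under PBS (difference -1.02 ± 0.22, adjusted p = 0.042). The differences of CXCL9, CXCL10 and CXCL11 stayed called under all 19 alternatives that tested them.

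**Figure D3:**
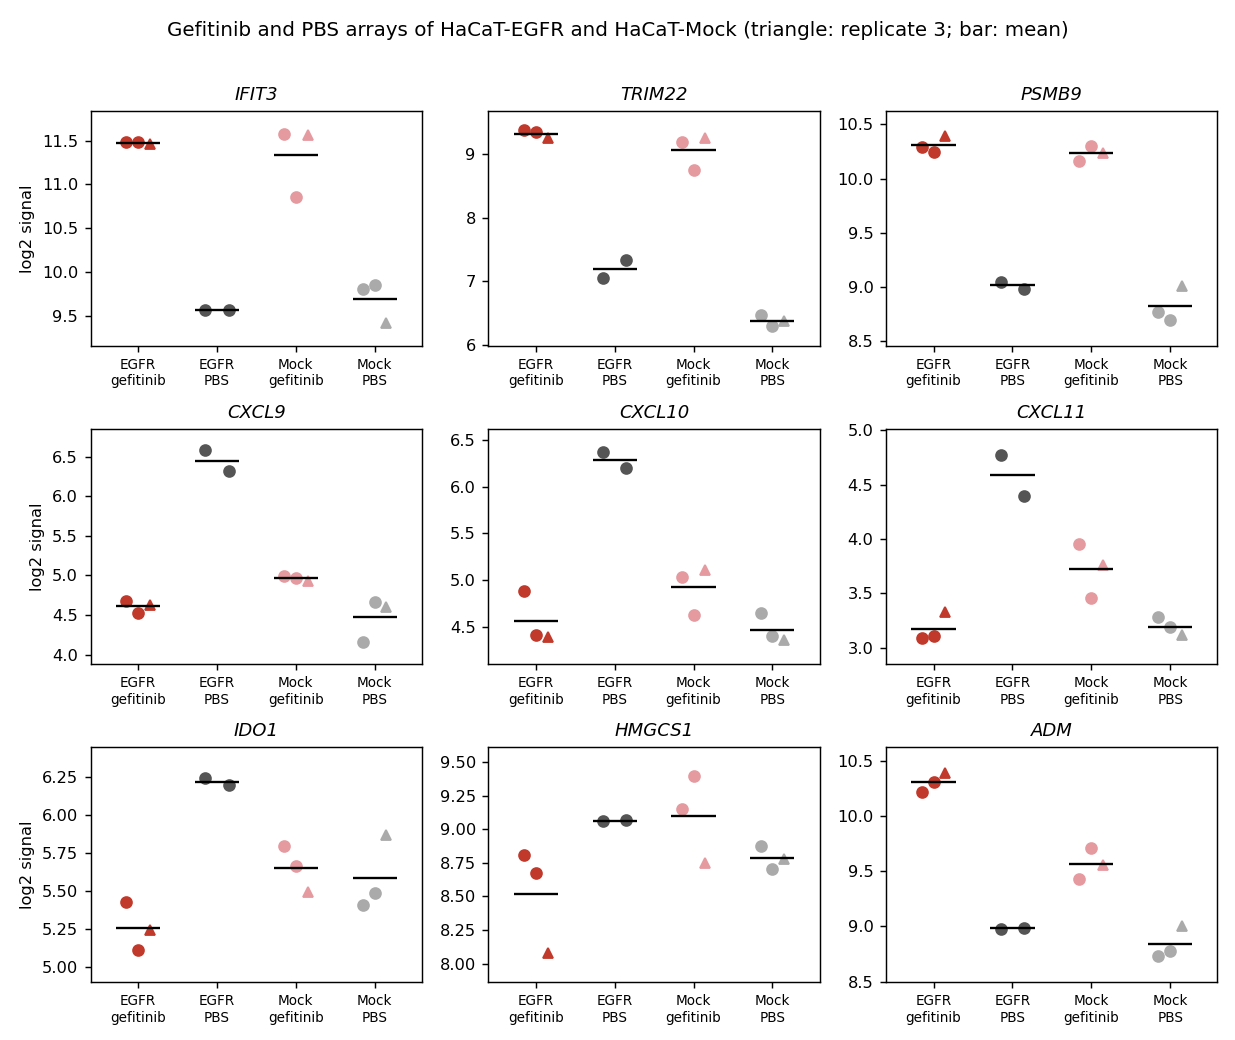
Log2 signal (vertical axis, a scale per panel) of 9 genes on the gefitinib and PBS arrays of HaCaT-EGFR and of HaCaT-Mock; each point is an array, triangles are replicate 3 (batch M under gefitinib, batch E for HaCaT-Mock under PBS) and bars are means. IFIT3, TRIM22 and PSMB9 are higher with gefitinib in both lines, whereas CXCL9, CXCL10 and CXCL11 are highest on the PBS arrays of HaCaT-EGFR.

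The other differences from HaCaT-Mock were smaller. ADM, adrenomedullin, read 10.22, 10.31 and 10.39 under gefitinib against 8.98 and 8.99 under PBS in HaCaT-EGFR and 9.43, 9.71 and 9.56 under gefitinib against 8.73, 8.78 and 9.01 under PBS in HaCaT-Mock, a rise in both lines that was larger by 0.60 ± 0.11 in HaCaT-EGFR (adjusted p = 0.0049). HMGCS1, an early enzyme of sterol synthesis, read 8.8, 8.67 and 8.08 under gefitinib against 9.06 and 9.07 under PBS in HaCaT-EGFR and 9.15, 9.4 and 8.75 under gefitinib against 8.88, 8.7 and 8.78 under PBS in HaCaT-Mock (-0.86 ± 0.17, adjusted p = 0.021), with the array of batch M lowest among the gefitinib arrays of each line. The differences were -1.07 ± 0.23 for FUCA2, a fucosidase, 0.45 ± 0.088 for the zinc finger factor KLF13 and 0.62 ± 0.13 for THEM6. Without gefitinib array 3, PBS array 1 or PBS array 2 of HaCaT-EGFR none of ADM, FUCA2, HMGCS1, IDO1, KLF13 and THEM6 was called and the count was 3. Without gefitinib array 2, or without any 1 of the 6 HaCaT-Mock arrays, 1 to 4 of these genes lost the call. CXCL9, CXCL10, CXCL11, FUCA2 and IDO1 lie below the level set for named genes and are named because they were called. In both lines the called members of the list of interferon-stimulated genes rose, with 20 of 28 higher (12.4% of all genes) and 0 lower in HaCaT-Mock. No difference of response was called among them, but only 0.0455% of all genes were called, so equal responses are not shown. The list's median response was 0.369 in HaCaT-EGFR and 0.599 in HaCaT-Mock. Its median difference was -0.237, against -0.00705 over all genes.

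Genes of DNA replication and of mitosis fell by modest amounts. Of 17 S phase genes 11 fell and none rose (median -0.322), led by CDC6, which loads the replicative helicase, with 8.65, 8.45 and 8.45 under gefitinib against 9.34 and 9.3 under PBS (-0.81 ± 0.092, adjusted p = 8.2e-10). CDC45 (-0.66 ± 0.065) and the nucleotide enzymes RRM2 (-0.66 ± 0.099) and TYMS (-0.54 ± 0.072) fell too. Of 16 G2 and M phase genes 12 fell and none rose (median -0.43). AURKA, a kinase of the mitotic spindle, read 10.05, 10.02 and 9.67 against 10.92 and 10.96 under PBS (-0.91 ± 0.13, adjusted p = 3.6e-07), CDK1 changed by -0.73 ± 0.16 and MKI67, the Ki-67 antigen, by -0.53 ± 0.12. BUB1 (-0.69 ± 0.11) was not called with the probe set that the study's rule picks (-0.27, adjusted p = 0.23). The E2F motif was in 7 of the 10 falling S phase genes with a promoter, CDC6 at 7 among them, against 2.31% of all promoters and 5.15% of all genes that fell. The CHR motif was in 5 of 9 falling G2 and M phase genes, MKI67 at -47 and -29 among them, against 15.4% of all promoters.

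At the G1 checkpoint, CDKN2B, the inhibitor p15, read 9.31, 9.28 and 8.94 under gefitinib against 7.7 and 7.85 under PBS (1.55 ± 0.28, adjusted p = 1.7e-05). The inhibitors CDKN1A (p21, 0.60 ± 0.11) and CDKN1B (p27, 0.52 ± 0.14) rose, and CCND3 (-0.48 ± 0.14) and CDK4 (-0.36 ± 0.073) fell. CCND1, cyclin D1, did not pass (-0.02 ± 0.13, adjusted p = 0.95). CDKN1A was the only 1 of 8 p53 targets called, and MDM2 (-0.10 ± 0.15) was not. All 10 ribosome biogenesis genes fell (median -0.56). NOP16, a nucleolar protein, read 8.96, 8.91 and 8.96 under gefitinib against 9.91 and 9.81 under PBS (-0.89 ± 0.10, adjusted p = 1.2e-09), WDR43 changed by -0.81 ± 0.12, NOLC1 by -0.74 ± 0.077 and NPM1, nucleophosmin, by -0.30 ± 0.071. The E-box CACGTG, which MYC can bind, was in 3 of 7 of their promoters and in 7.43% of all.

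Glycolytic and hypoxia-linked genes mostly fell, with 9 of 14 lower and 3 higher (median -0.445). BNIP3, a mitophagy receptor, read 8.09, 8.1 and 7.91 under gefitinib against 9.8 and 9.68 under PBS (-1.61 ± 0.15, adjusted p = 1.3e-12). PDK1, which holds pyruvate out of the mitochondrial cycle, changed by -1.0 ± 0.12, hexokinase HK2 by -0.90 ± 0.13, VEGFA by -0.86 ± 0.14, LDHA by -0.62 ± 0.078 and enolase ENO1 by -0.58 ± 0.066. ADM (1.35 ± 0.081), PFKFB3 (0.91 ± 0.084) and NDRG1 (0.75 ± 0.11) rose, and the glucose transporter SLC2A1 (0.13 ± 0.097, adjusted p = 0.37) did not pass. Of 11 sterol genes LSS rose (0.44 ± 0.096) and HMGCS1 (-0.41 ± 0.13), DHCR7 (-0.24 ± 0.082) and FDPS (-0.20 ± 0.075) fell. From the batch J arrays alone none of the 3 falls was called. SREBF1, the regulator of lipid synthesis, read 9.8, 9.83 and 10.29 under gefitinib against 8.72 and 8.88 under PBS (1.06 ± 0.12, adjusted p = 1.0e-09), and its target SCD rose by 0.54 ± 0.11 while FASN did not pass (0.10 ± 0.12, adjusted p = 0.63).

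Of the genes of cell death, TNFSF10, the death ligand TRAIL, read 10.28, 10.17 and 10.01 under gefitinib against 7.6 and 7.59 under PBS (2.67 ± 0.24, adjusted p = 1.1e-12). Its death receptors TNFRSF10A (-1.01 ± 0.16) and TNFRSF10B (-0.63 ± 0.11) fell. In the BCL2 family, the BH3-only genes HRK (1.15 ± 0.15), BCL2L11 (BIM, 0.68 ± 0.088), BAD (0.42 ± 0.10) and BIK (0.33 ± 0.088) rose, as did the survival gene MCL1 (0.36 ± 0.11), and the effector BAX fell (-0.52 ± 0.15). The other 8 of 14 did not pass, including BCL2L1 (-0.04 ± 0.10) and PMAIP1 (-0.27 ± 0.22).

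In the TGF-β and BMP pathway 8 of 16 genes rose and 5 fell. The inhibitors of differentiation ID1, ID3 and ID2, known targets of BMP signals, rose by 1.67 ± 0.16 for ID1, 1.6 ± 0.13 for ID3 and 1.29 ± 0.15 for ID2. ID1 read 12.08, 12.08 and 12.31 under gefitinib against 10.3 and 10.53 under PBS. The ligands BMP2 (0.74 ± 0.14), BMP4 (0.41 ± 0.11) and TGFB2 (0.92 ± 0.25) rose, and INHBA (-0.96 ± 0.17) and TGFB1 (-0.51 ± 0.19) fell. The inhibitory SMAD7 did not pass (-0.07 ± 0.13, adjusted p = 0.78).

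Matrix proteases moved in both directions. MMP10, stromelysin 2, read 7.14, 7.3 and 7.01 under gefitinib against 5.12 and 5.36 under PBS (2.05 ± 0.31, adjusted p = 3.9e-07), and MMP28 rose by 1.18 ± 0.17. MMP9, a gelatinase, read 5.95, 5.85 and 6.25 against 7.86 and 7.6 under PBS (-1.73 ± 0.21, adjusted p = 2.7e-09), and the inhibitor TIMP1 fell (-1.44 ± 0.13). MMP1 (-0.37 ± 0.55, adjusted p = 0.72) and MMP3 (-0.24 ± 0.13, adjusted p = 0.19) did not pass. SERPINE2, a protease inhibitor, changed by -1.35 ± 0.12, and the urokinase receptor PLAUR did not pass (-0.02 ± 0.11, adjusted p = 0.95). Among genes of mesenchymal cells VIM (-0.99 ± 0.13), NT5E (-1.71 ± 0.30), CDH2 (-0.71 ± 0.13) and CD44 (-0.63 ± 0.10) fell, and SPARC (0.85 ± 0.10) and TGFBI (0.24 ± 0.067) rose. NT5E, the ectonucleotidase CD73, read 7.34, 7.26 and 6.84 under gefitinib against 9.12 and 9.0 under PBS. None of SNAI1, SNAI2, TWIST1, ZEB1 and ZEB2 passed. Beside CYP4F3, the prostaglandin E synthase PTGES (1.18 ± 0.14) and the prostaglandin-degrading HPGD (0.87 ± 0.25) rose, phospholipase PLA2G4A (-1.15 ± 0.17) and PTGS1 (-0.43 ± 0.13) fell, and PTGS2 did not pass (0.01 ± 0.16, adjusted p = 0.99).

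**Figure D4:**
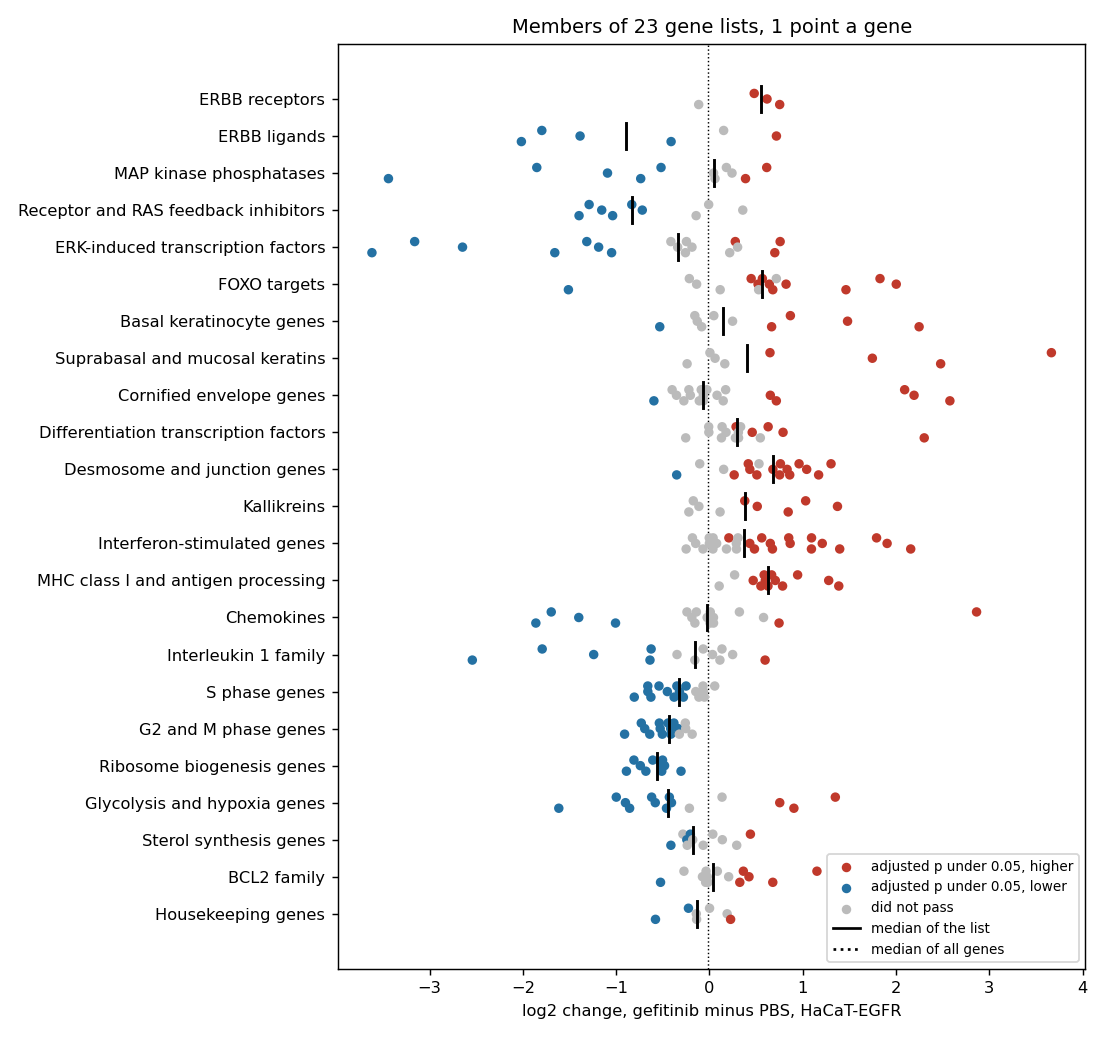
Log2 change, gefitinib minus PBS in HaCaT-EGFR (horizontal axis), of every measured member of 23 gene lists (rows), 1 point a gene, red where called higher, blue where called lower and grey where not called; black bars are list medians and the dotted line the median of all genes. Ribosome biogenesis, S phase and G2 and M phase genes lie mostly left of the line, and junction, MHC class I and interferon-stimulated genes mostly right of it.

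Markers of other cell types were at low levels on both groups. Summed up as list means, fibroblast markers had 5.12, 5.17 and 5.04 under gefitinib against 5.1 and 5.12 under PBS. The endothelial genes CDH5 (0.96 ± 0.18) and VWF (0.71 ± 0.18) and the collagen COL3A1 (0.52 ± 0.19) were the 3 of 21 that rose, and their levels under gefitinib averaged 4.66, 6.0 and 4.5. Their part in the other results was not tested. Of 7 housekeeping genes HPRT1 (-0.58 ± 0.078) and PPIA (-0.23 ± 0.059) fell, GUSB (0.23 ± 0.077) rose and ACTB was at 0.00097 ± 0.071.

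Batch J alone, with 2 gefitinib and 2 PBS arrays and no batch correction, called 3741 genes (18.9% of those tested), 1941 higher (9.82%) and 1800 lower (9.10%). Of these 3666 were also called over all batches, which is 98.0% of the batch J list and 75.0% of the longer one. The largest changes hardly moved, with -3.6 for EGR1, -3.44 for DUSP6, 3.63 for KRT4, 2.57 for IVL and 2.63 for TNFSF10. Interferon-stimulated genes were higher for 11 and lower for 0 of 28, and G2 and M phase genes lower for 13 of 16. With any 1 of the 4 arrays left out 2218 to 2437 genes were called, in fits where a lone array is taken to vary like the other groups.

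A second view came from arrays outside the groups of the main comparison. They were a gefitinib and a PBS array of HaCaT-EGFR that both had scramble siRNA and both lay in batch E. With 1 array each there is no test and no replicate check. At a log2 difference of at least 1, 282 genes (1.43%) were higher, and 99 (0.501%) were lower by as much. Of the 4888 genes called above, 4495 (92.0%) had the same sign there, and of the 410 that changed by at least 1 log2 unit 409 did (99.8%), where over all genes 66.8% did. EGR1 differed by -2.52, DUSP6 by -4.09, KRT4 by 2.47, IVL by 1.99, CXCL9 by -1.33 and CXCL10 by -1.77. Not every list kept its size. The median over G2 and M phase genes was 0.0970 and over S phase genes -0.126, where the 5 arrays gave -0.43 and -0.322. HMGCS1 differed by 0.50, opposite to its fall over the 5 arrays.

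Loss of the receptor transcript by siEGFR was set against scramble siRNA on 3 arrays each, none of them in the groups of the gefitinib comparison. They are among the 89 arrays of the model, so its batch terms and spread draw on them too. EGFR read 9.04, 9.1 and 8.31 with siEGFR against 10.75, 10.75 and 10.06 with scramble siRNA (-1.71 ± 0.096, adjusted p = 1.2e-19), so the knockdown lowered the transcript that gefitinib raised. It called 1871 genes (9.46%), 940 higher (4.75%) and 931 lower (4.71%). Of the 4888 genes called with gefitinib 934 (19.1%) were called in the same direction with siEGFR, which is 49.9% of the siEGFR list, and 134 (2.74%) in the opposite direction. DUSP6 (-1.7 ± 0.21), FOSL1 (-1.44 ± 0.24), IER3 (-1.16 ± 0.12) and HBEGF (-1.04 ± 0.11) fell with siEGFR as well, but EGR1 (-0.36 ± 0.16, adjusted p = 0.17), NRG1 (-0.13 ± 0.13, adjusted p = 0.63) and MMP9 (-0.15 ± 0.18, adjusted p = 0.73) did not pass. CXCL10 read 5.22, 5.48 and 4.89 with siEGFR against 6.42, 6.78 and 6.35 with scramble siRNA (-1.32 ± 0.19, adjusted p = 1.3e-06). No G2 and M phase gene was called with siEGFR, where 12 of 16 fell with gefitinib. That difference itself was not tested.

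Gefitinib at 100 nM was next set directly against afatinib at 10 nM, a covalent inhibitor that is also an anilinoquinazoline. The doses differ, so drug and dose cannot be told apart. EGR1 was the 1 gene called (0.00506% of 19775), and 656 had an unadjusted p under 0.05. That is a smaller share than the 0.05 of all genes that would be met with no difference anywhere. It read 6.58, 6.66 and 6.17 under gefitinib against 7.59, 7.54 and 7.0 under afatinib (-0.91 ± 0.16, adjusted p = 0.012), with every gefitinib array below every afatinib array. Without the batch term, and in 5 of 6 fits that left out an array, EGR1 was not called. DUSP6 read 6.58, 6.4 and 6.18 under gefitinib against 7.54, 7.22 and 6.99 under afatinib and did not pass (-0.86 ± 0.21, adjusted p = 0.86, with an unadjusted 95% interval of -1.29 to -0.438). EGFR did not pass either (-0.22 ± 0.096, adjusted p = 0.9998), and its unadjusted interval of -0.407 to -0.0234 lay below 0. Intervals that spanned 0 included -0.648 to 0.311 for FOSL1, -0.315 to 0.187 for NRG1, -0.592 to 0.627 for KRT4, -0.374 to 0.337 for IVL and -0.755 to 0.108 for TNFSF10. The median SE of the difference over all genes was 0.111, and a difference that missed the threshold does not show that the drugs act alike.

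Cetuximab, an antibody that binds the receptor from outside and blocks its ligands, was labelled with the same 100 nM. Against it gefitinib differed in 668 genes (3.38%), 353 higher (1.79%) and 315 lower (1.59%), of which 4 and 3 by at least 1 log2 unit. MMP10 read 7.14, 7.3 and 7.01 under gefitinib against 5.69, 5.96 and 5.12 under cetuximab (1.56 ± 0.27, adjusted p = 0.00018). MMP13 read 7.92, 8.12 and 7.85 against 6.62, 6.78 and 6.08 under cetuximab (1.47 ± 0.21, adjusted p = 4.6e-06), and FBXO32 read 8.5, 8.56 and 8.47 against 7.28, 7.42 and 7.11 under cetuximab (1.24 ± 0.16, adjusted p = 1.0e-06). In each the gefitinib arrays stood above all cetuximab arrays. TNFSF10 (1.08 ± 0.21) and LINC01279, a long noncoding RNA (0.92 ± 0.24), were higher too. Lower with gefitinib than with cetuximab were IGFL1 (-1.14 ± 0.24), the cytokine subunit LTB (-0.93 ± 0.24), HMGCS1 (-0.73 ± 0.11), NRG1 (-0.69 ± 0.13) and PHLDA2 (-0.64 ± 0.11). With the probe set that the study's rule picks, the NRG1 difference was 0.00876. TNFSF10, LINC01279, LTB and HMGCS1 were not called without the batch term (adjusted p = 0.053, 0.12, 0.056 and 0.088) nor from batch J arrays alone (0.16, 0.54, 0.36 and 0.12). NRG1 was not called without the batch term (adjusted p = 0.26), and IGFL1 and PHLDA2 were not from batch J arrays alone (0.14 and 0.091). LINC01279 also lost its call without gefitinib array 1 or 2 or cetuximab array 1 or 3 (0.79 to 0.94), and LTB without gefitinib array 2 or 3 or cetuximab array 3 (-0.90 to -0.87). EGFR itself read 11.62, 11.79 and 11.18 under gefitinib against 11.2, 11.2 and 10.52 under cetuximab (0.56 ± 0.096, adjusted p = 0.00015), and ADM differed by 0.77 ± 0.072. Of 17 S phase genes 7 were lower with gefitinib, and of 11 sterol genes 4. From batch J arrays alone 52 genes were called, without the batch term 107, and with any 1 of the 6 arrays left out 231 to 455.

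**Figure D5:**
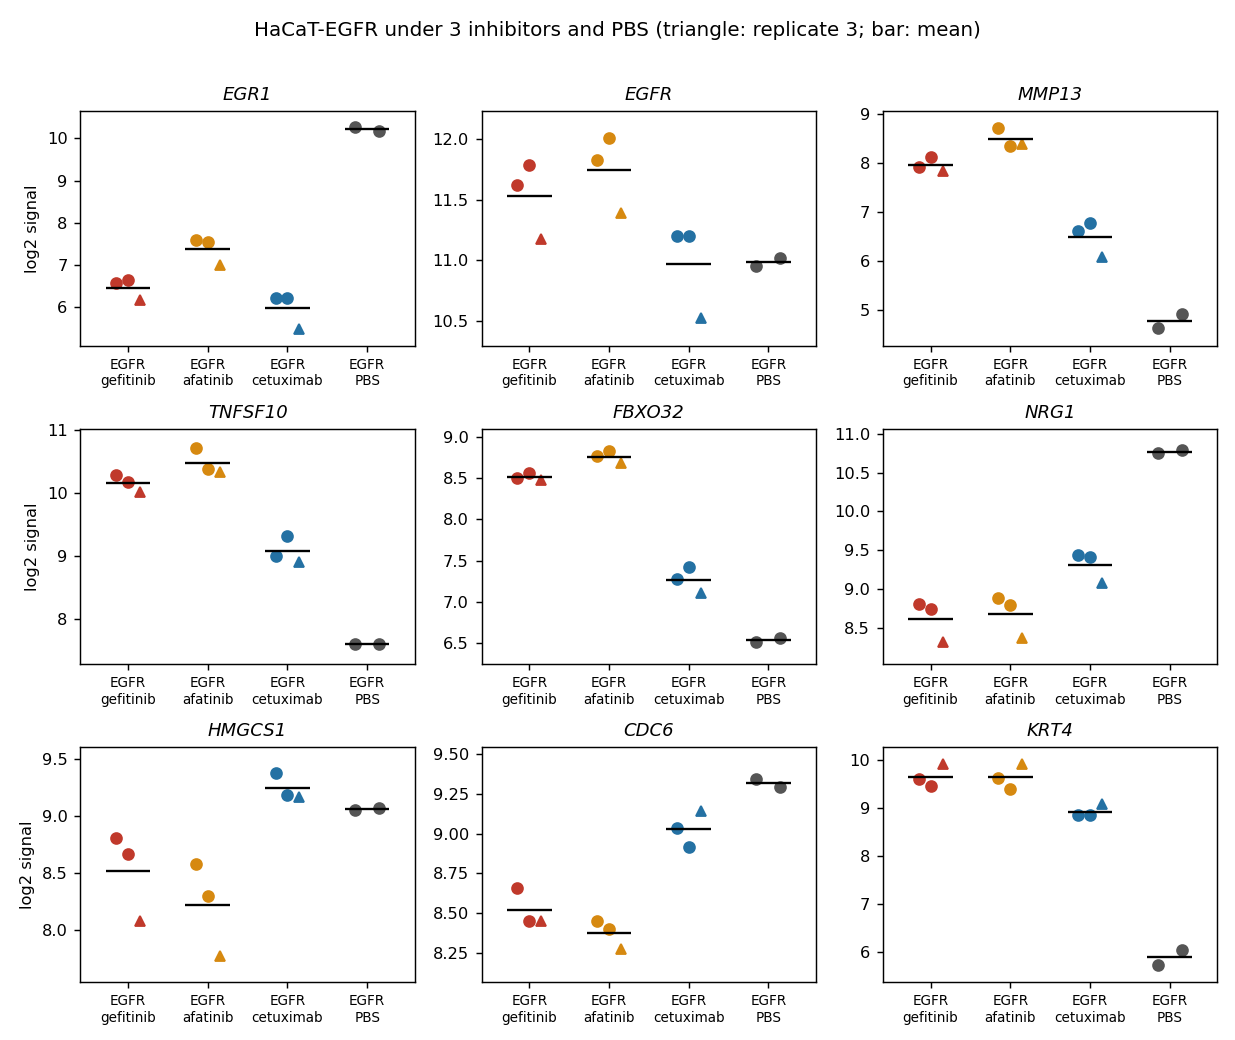
Log2 signal (vertical axis, a scale per panel) of 9 genes in HaCaT-EGFR under gefitinib (100 nM), afatinib (10 nM), cetuximab (100 nM) and PBS; each point is an array, triangles are replicate 3 and bars are means. The EGR1 arrays under gefitinib lie below those under afatinib, and the MMP13, TNFSF10 and FBXO32 arrays under gefitinib lie above those under cetuximab.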

How the data were processed

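Total RNA of HaCaT cells was hybridised to Affymetrix U133 Plus 2.0 arrays. The deposited values are log2 expression per probe set, and the authors' methods describe frozen robust multi-array normalization with fRMA, a surrogate-variable batch correction (pSVA) and the removal of outlying arrays. The submitters' processing notes name affy only, so how far the deposited values were corrected for batch is unknown, and batch was kept in the model. Groups, doses and batches came from the labels. Labels of batch M arrays hold no replicate number, and their numbers were assigned here.

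Of 54675 probe sets, 41097 had 1 gene symbol in the platform annotation, which can be old. Each of 19775 genes was read from its brightest probe set (mean over 89 HaCaT construct arrays), without a filter on low values. The number of arrays limits the precision. Differences were fitted with limma 3.58.1 in R 4.3.3 (group and batch terms, 47 residual degrees of freedom, two-sided moderated tests, Benjamini-Hochberg over all genes, called at an adjusted p under 0.05), after a test of the code on simulated data. The batch J model held 51 arrays. Named genes were the 12 largest rises and falls that were called, lay at or above the median level and had no overlap between groups, the 5 largest each way in the other comparisons, EGFR, and members of each list by adjusted p and role. The members and lists were chosen with earlier results of these data known. Promoters were read from RefSeq. Alternatives changed the batch term, the arrays in the model, array weights, the probe set, the level filter, normalization and the variance prior, and left out each array in turn. Figures were drawn with matplotlib 3.10.9 and tables handled with pandas 2.3.3.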

Additional observations from a re-analysis of the deposited data

Results flagged for a closer look

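Gefitinib responses differed between HaCaT-EGFR and HaCaT-Mock for 9 genes, by a test of the difference itself in limma. The difference (HaCaT-EGFR minus HaCaT-Mock, log2) was -2.33 for CXCL9, -2.17 for CXCL10, -1.94 for CXCL11, -1.07 for FUCA2, -1.02 for IDO1 and -0.86 for HMGCS1. It was 0.62 for THEM6, 0.60 for ADM and 0.45 for KLF13.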

How the results depend on the processing

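Over the alternatives run, the gene results of gefitinib against PBS kept direction and call in 2413 cases, lost the call in 80, gained it in 7 and reversed in 1 (DHCR7, 0.0499 without the batch term). Against cetuximab 140 kept and 27 lost the call, and NRG1 reversed with the probe set of the study's rule (0.00876). Calls of gefitinib against PBS that a left-out array ended, among genes named above, were TGFA without PBS array 1 (-0.35), PBS array 2 (-0.47), gefitinib array 2 (-0.40) or gefitinib array 3 (-0.39), HMGCS1 without PBS array 1 (-0.42), PBS array 2 (-0.41) or gefitinib array 3 (-0.33), and FDPS without any array but gefitinib array 1 (-0.23 to -0.18). DHCR7 was lost without PBS array 1 (-0.20), gefitinib array 2 (-0.23) or gefitinib array 3 (-0.24), COL3A1 without either PBS array (0.44 and 0.60) or gefitinib array 1 (0.43), and GUSB without any array but gefitinib array 2 (0.21 to 0.23). Without PBS array 2, BIK (0.18), GRHL3 (0.48), MAF (0.55), BTC (0.59), HPGD (0.83) and VWF (0.57) were lost. Without the batch term EGFR (0.55), IGF1R (0.51), BMP2 (0.54), JUP (1.13), KLK5 (1.25), CDK4 (-0.21) and CDKN1B (0.40) were among those lost. The cause of these shifts was not tested.

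Without the batch term 2858 genes were called for gefitinib against PBS (4888 with it), 3 for the difference from HaCaT-Mock (9), 0 against afatinib (1), 107 against cetuximab (668) and 594 for siEGFR (1871). In limma without the batch term 252 genes differed from afatinib at an unadjusted p under 0.05. Here and below, a share of 0.05 of the genes tested would pass that with no difference anywhere. Batch J arrays alone gave 4 genes for the difference from HaCaT-Mock, 52 against cetuximab and 725 for siEGFR, and a model of the compared groups only gave 5 for the difference from HaCaT-Mock. With array weights 7479 genes were called against PBS, 6714 in batch J, 531 for the difference from HaCaT-Mock, 73 against afatinib, 2941 against cetuximab and 3984 for siEGFR. Testing every probe set by itself called 7612 of 41091 probe sets against PBS, where the other counts are of genes. Without 3 doubtful arrays of the other lines (HaCaT-HRAS gefitinib 1 and 2, HaCaT-PIK3CA afatinib 1) there were 69 for the difference from HaCaT-Mock, 7 against afatinib, 1716 against cetuximab and 3025 for siEGFR. Leaving out each array in turn gave 3370 to 4365 against PBS, 2218 to 2437 in batch J, 3 to 9 for the difference from HaCaT-Mock, 0 to 1 against afatinib (427 to 705 at an unadjusted p under 0.05 where 0 were called) and 231 to 455 against cetuximab.

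Same-numbered arrays did not deviate together (correlations -0.00128 to 0.0427). With the replicate number as a replicate block, 5329 genes were called against PBS in batch J (5663 on the same 8 arrays without the number term). It gave 0 against afatinib (1172 at an unadjusted p under 0.05 in limma) and 2 against cetuximab (163 without the number term). For siEGFR the block gave 0 (4422 at an unadjusted p under 0.05 in limma), from the batch J siEGFR and scramble arrays only. So few arrays left too few residual degrees of freedom for that 0 to decide anything. These arrays were not fitted by themselves without the number term.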
